A study of Mus musculus with 6 samples.

Results

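The type I interferon-stimulated antiviral genes described here are 40 genes chosen by symbol from known targets of interferon, and all 40 were found among the 23284 genes of the deposited count tables. They were measured by RNA sequencing of CD8 T cells sorted from the lymph nodes of C3H/HeJ mice, an inbred strain in which the autoimmune hair loss disease alopecia areata is studied. NKG2D+ cells (3 libraries) were compared with NKG2D- cells (3 libraries). Cells of both populations carried CD3, CD8, CD44 and CXCR3, and differed in the gate by NKG2D, an activating receptor encoded by Klrk1. CD44 and CXCR3 are common on antigen-experienced T cells, but whether these cells had met antigen was not tested. Both populations came from 3 mice, and libraries with the same number were taken to come from the same mouse. The labels list no treatment or engineered allele, and no source used here gives the age, sex or disease state of the mice.

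Type I interferons, the alpha and beta interferons, bind the receptor IFNAR, whose kinases JAK1 and TYK2 activate STAT2. With IRF9 it is part of the factor ISGF3, which binds a promoter sequence called the interferon-stimulated response element and switches on antiviral genes. In T cells many of these genes are transcribed at some level without infection, and interferon raises them further. Interferon gamma and other cytokines can induce part of the same genes.

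Between 63232698 and 89184611 gene counts were obtained per NKG2D+ library, against 41168816 to 67315805 per NKG2D- library. Klrk1 stood at 409, 312 and 342 CPM (counts scaled to library size) in NKG2D+ libraries 1, 2 and 3, against 34.5, 37.1 and 36.1 CPM in NKG2D- libraries 1, 2 and 3 (9.86-fold higher by edgeR's quasi-likelihood test, p adjusted over all genes = 0.000185), as the labels say. The summed level of 7 genes that define the sorted cells, among them Cd3e and Cd8a, was 3485 to 5490 CPM in NKG2D+ and 3576 to 3849 CPM in NKG2D- libraries. Single genes of this sum could differ. Cd44 had 430, 176 and 224 CPM in NKG2D+ libraries 1, 2 and 3, against 137, 136 and 133 CPM in NKG2D- libraries. Its log2 fold change was 1.03 (edgeR, adjusted p = 0.13), and that of Cd3d was -0.18 (edgeR, adjusted p = 0.205). Markers of other cells that can express interferon-stimulated genes were present as well. For 10 B-cell markers, all tested and none at 0, the sum was 454, 187 and 224 CPM in NKG2D+ and 51.8, 166 and 120.4 CPM in NKG2D- libraries 1, 2 and 3. For 17 markers of dendritic cells, monocytes and macrophages, with none at 0 in every library, it was 45.8 to 78.6 CPM in NKG2D+ and 27.1 to 35.3 CPM in NKG2D- libraries. For 10 markers of plasmacytoid dendritic cells it was 228 to 292 CPM in NKG2D+ and 158 to 201 CPM in NKG2D- libraries, and most of it was Runx2, which other lymphocytes express too (141 to 203 CPM in NKG2D+ and 96.7 to 109.7 CPM in NKG2D- libraries), and Pacsin1. Siglech, which defines those cells, stood at 0.426 to 1.24 CPM in NKG2D+ and 0.947 to 2.14 CPM in NKG2D- libraries. Of the 8 tested markers of this list, 5 had a positive log2 fold change (median of the 8, 0.93). These 5 were Runx2, Tcf4, Spib, Ly6d and Clec12a, while Siglech, Pacsin1 and Cd209d had a negative one. Runx2 alone was called by edgeR, as higher in NKG2D+ cells (adjusted p = 0.0483). The part of such cells in the results below was not tested, and in sorted bulk samples fewer cells of a type and less RNA per cell cannot be told apart.

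Matches to a core of the response element that ISGF3 binds can be read in the promoters of several of these genes. Of the 4 promoter windows shown, 3 hold such a match, and that of Samhd1, the member with the smallest p, does not. Sequence outside the windows was not searched. Promoter sequences from RefSeq (build GRCm38.p6) were at hand for 31 of the 40 genes, as 38 windows of 250 bases before a gene start. They come from the reference strain C57BL/6J, not from C3H/HeJ. A core of the element, searched on both strands as GAAA, any 2 bases and GAAA again, with overlapping matches counted, was present in 11 of the 38 windows (28.9%), against 978 of 32851 windows of all genes (2.98%). Isg15 (chr4:156200819-156201068 on the minus strand) held 3 overlapping matches, Oas1a (chr5:120907526-120907775 on the minus strand) 2 overlapping matches, Ifit3 (chr19:34583279-34583528 on the plus strand) 2 separate matches and Samhd1 (chr2:157135097-157135346 on the minus strand) none. In the sequences below, each read 5′ to 3′ towards the gene start, capitals mark the matches.
Isg15: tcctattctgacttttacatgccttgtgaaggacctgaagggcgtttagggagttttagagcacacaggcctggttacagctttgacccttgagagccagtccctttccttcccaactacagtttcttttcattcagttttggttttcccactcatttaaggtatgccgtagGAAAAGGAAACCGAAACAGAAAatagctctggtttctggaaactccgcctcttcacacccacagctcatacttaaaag
Oas1a: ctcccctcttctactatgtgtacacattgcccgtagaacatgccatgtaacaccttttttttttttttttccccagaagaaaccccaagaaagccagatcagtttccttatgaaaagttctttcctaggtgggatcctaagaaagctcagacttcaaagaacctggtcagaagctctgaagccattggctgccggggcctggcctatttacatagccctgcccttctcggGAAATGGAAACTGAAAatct
Ifit3: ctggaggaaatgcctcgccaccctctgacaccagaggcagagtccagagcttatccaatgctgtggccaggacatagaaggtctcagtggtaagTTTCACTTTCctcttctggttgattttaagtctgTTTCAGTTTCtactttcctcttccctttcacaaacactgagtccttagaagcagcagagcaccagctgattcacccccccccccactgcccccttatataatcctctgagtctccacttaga
Samhd1: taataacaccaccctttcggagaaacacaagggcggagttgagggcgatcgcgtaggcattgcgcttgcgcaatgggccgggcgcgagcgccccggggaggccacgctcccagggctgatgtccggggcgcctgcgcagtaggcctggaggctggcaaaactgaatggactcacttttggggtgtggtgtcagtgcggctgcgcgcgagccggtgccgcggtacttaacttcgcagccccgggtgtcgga
In Isg15 the matches began 78, 72 and 66 bases before the start, and in Oas1a 20 and 14 bases before it. In Ifit3 they began 156 and 122 bases before the start. A match is a description of letters and not a test of binding.

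The antiviral genes covered a wide range of levels in both populations, as the plot of levels per exon length shows. Per kilobase (kb) of exon, Lgals3bp, a secreted galectin-3 binding protein, was the highest of the 40, with 132 CPM per kb in NKG2D+ cells and 113 in NKG2D- cells. It was followed by Bst2, which encodes the virus-tethering membrane protein tetherin, with 72.7 CPM per kb in NKG2D+ cells and 73.8 in NKG2D- cells. Samhd1, which encodes an enzyme that breaks down the nucleotides needed for viral DNA synthesis, was next, with 55.2 CPM per kb in NKG2D+ cells and 43.2 in NKG2D- cells. At the low end stood Oasl1, at 0.902 CPM per kb in NKG2D+ and 1.09 CPM per kb in NKG2D- cells, and Oas1g. With 17, 7 and 8 counts in NKG2D+ libraries 1, 2 and 3 and 4, 8 and 5 counts in NKG2D- libraries 1, 2 and 3, Oas1g was the only member that did not pass the filter on low counts. Neighbours in this order mostly could not be told apart: for 31 of 39 neighbouring genes the ranges of the NKG2D+ libraries overlapped. Exon lengths came from a mouse annotation of another build than the reads were aligned to, so these levels are approximate.

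**Figure D1:**
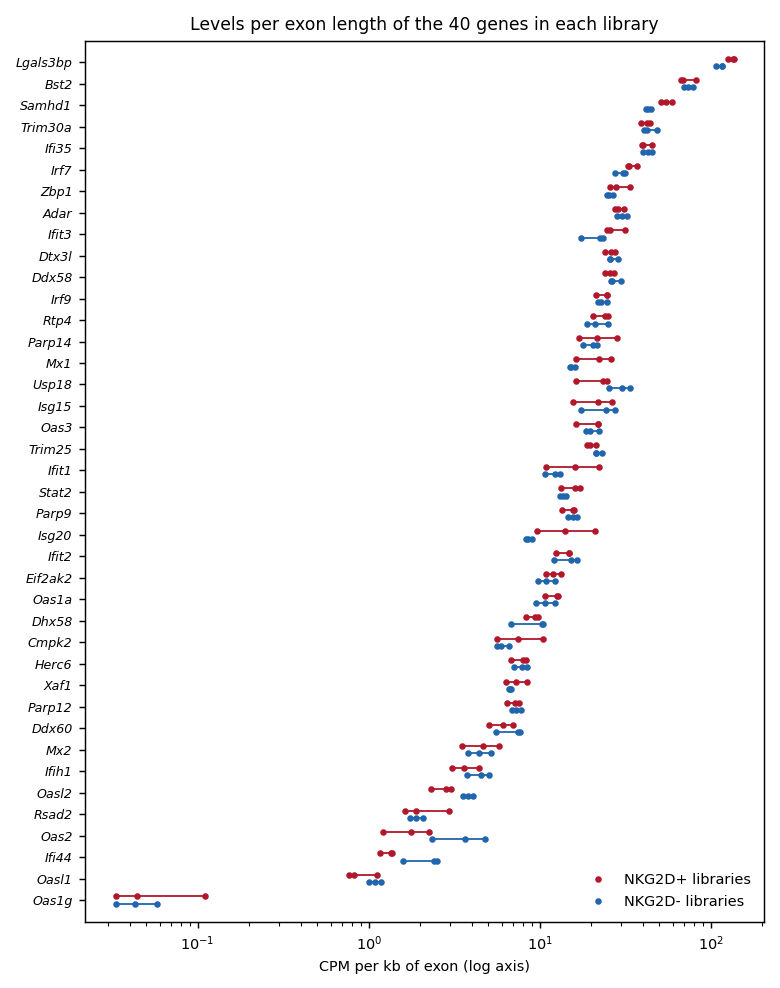
Level of each of the 40 genes per kilobase of exon (CPM per kb, log axis) in each NKG2D+ library (red, upper points) and each NKG2D- library (blue, lower points), with lines joining the lowest and highest library of a population. Levels ran from Lgals3bp at 132 CPM per kb in NKG2D+ and 113 CPM per kb in NKG2D- cells down to Oas1g at 0.0627 CPM per kb in NKG2D+ and 0.0447 CPM per kb in NKG2D- cells.

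The main comparison asked whether NKG2D+ cells differed from NKG2D- cells in this antiviral programme. None of the 39 tested members passed edgeR's quasi-likelihood test at a p under 0.05 after Benjamini-Hochberg adjustment over all genes tested, higher or lower, and limma-voom called 0 as well. Of all 12951 genes tested, 1.65% were called higher and 0.363% lower in NKG2D+ cells. The median log2 fold change of the members was -0.01, as was that of all genes tested, and 18 members (46.2%) had a positive value, against 47.2% of all genes. The interquartile range of the members lay between -0.08 and 0.18, against -0.15 and 0.18 for all genes. At an unadjusted p under 0.05 there were 9 members (23.1%), 5 higher and 4 lower, against 21.1% of all genes. The smallest adjusted p of a member was 0.0768, for Samhd1. Levels were scaled with TMM factors, and with library sizes alone the median of all genes moved to 0.07, so members close to 0 could change sign.

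A missed threshold does not show that levels were equal, so the sizes the data allow are given as 95% intervals of the log2 fold change, unadjusted for the number of genes. The interval lay within 2-fold in either direction for 35 of the 39 members (89.7%), against 75.7% of all genes tested. It lay within 1.5-fold for 26 members (66.7%), against 56.9% of all genes. Members and all genes were not matched for count level, on which the width of an interval depends in part. The shares therefore do not show that members differed less than other genes. The 4 members whose interval reached past 2-fold were Oas2, Ifi44, Isg20 and Ifit1, as the plot of fold changes by role group shows.

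**Figure D2:**
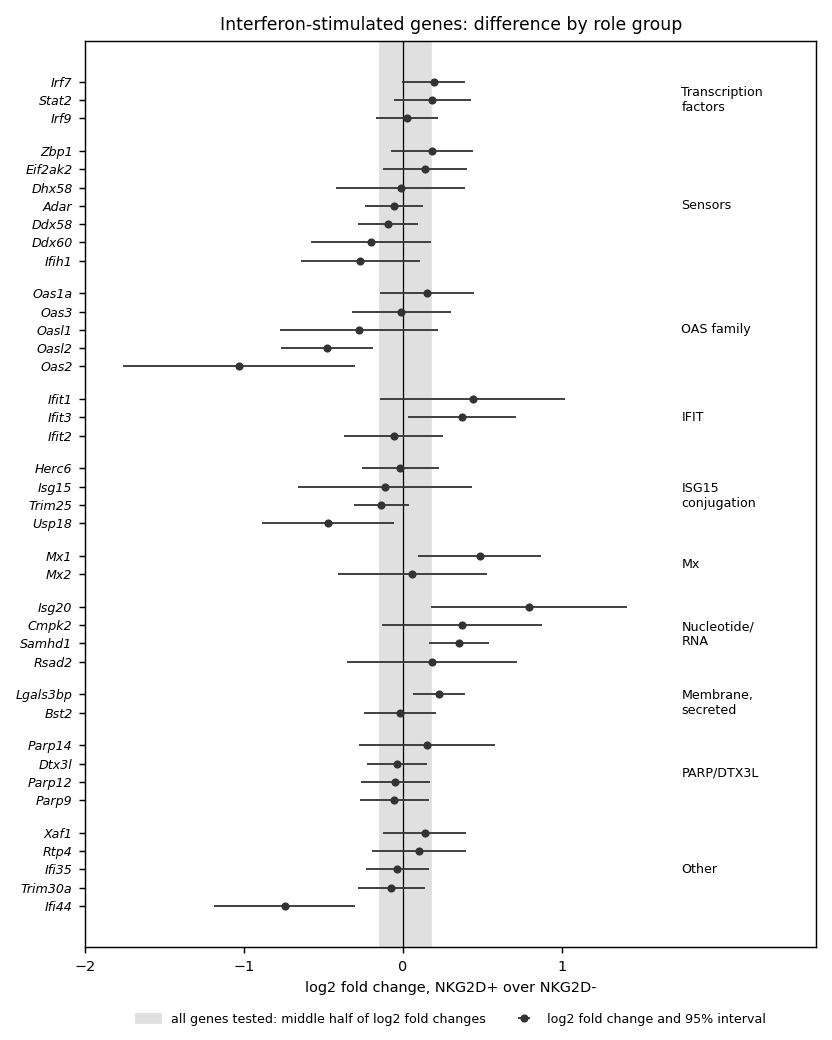
Log2 fold change of NKG2D+ over NKG2D- cells (points) with its unadjusted 95% interval (lines) for the 39 tested members, by role group, and the interquartile range of the log2 fold changes of all 12951 genes (grey band, -0.15 to 0.18). Points ran from -1.03 for Oas2 to 0.79 for Isg20, and none passed the test after adjustment over all genes.

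DESeq2 on the same counts called more genes, 7.73% higher and 3.41% lower, and among the members 3 higher (Isg20, Lgals3bp and Samhd1) and 3 lower (Ifi44, Oas2 and Oasl2). These shares of the members, 7.69% in each direction, may be read against those of all genes. With the replicate number as a block, edgeR called 0.44% of all genes higher and 0.0849% lower, and of the members Oas2 alone, as lower (log2 fold change -1.02, adjusted p = 0.0364). Calls also turned on single libraries. Without NKG2D+ library 2, edgeR called 6.86% of all genes higher and 3.1% lower, with Isg20, Ifit1, Mx1 and Samhd1 among those higher and Oasl2 among those lower. Without both libraries numbered 1, it called 1.36% higher and 0.389% lower, with Ifi44 among those lower (adjusted p = 0.0265). Without both libraries numbered 3, edgeR called 0 genes, and the adjusted p of the members named in this paragraph was 0.66 to 0.779.

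Every NKG2D+ value lay above every NKG2D- value for 6 members (15.4%), Samhd1, Lgals3bp, Isg20, Mx1, Ifit3 and Irf7, against 15.1% of all genes tested. Every NKG2D+ value lay below every NKG2D- value for 4 members (10.3%), Oas2, Oasl2, Ifi44 and Usp18, against 14.1% of all genes. Both shares were near or under those of all genes. The plot of these 10 members shows how far apart their values were. By mouse, the NKG2D+ value was the higher in all 3 mice for 10 members (25.6%), against 25.9% of all genes. It was the lower in all 3 mice for 11 members (28.2%), against 29.1% of all genes. A direction shared by all 3 mice was thus about as common among all genes.

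**Figure D3:**
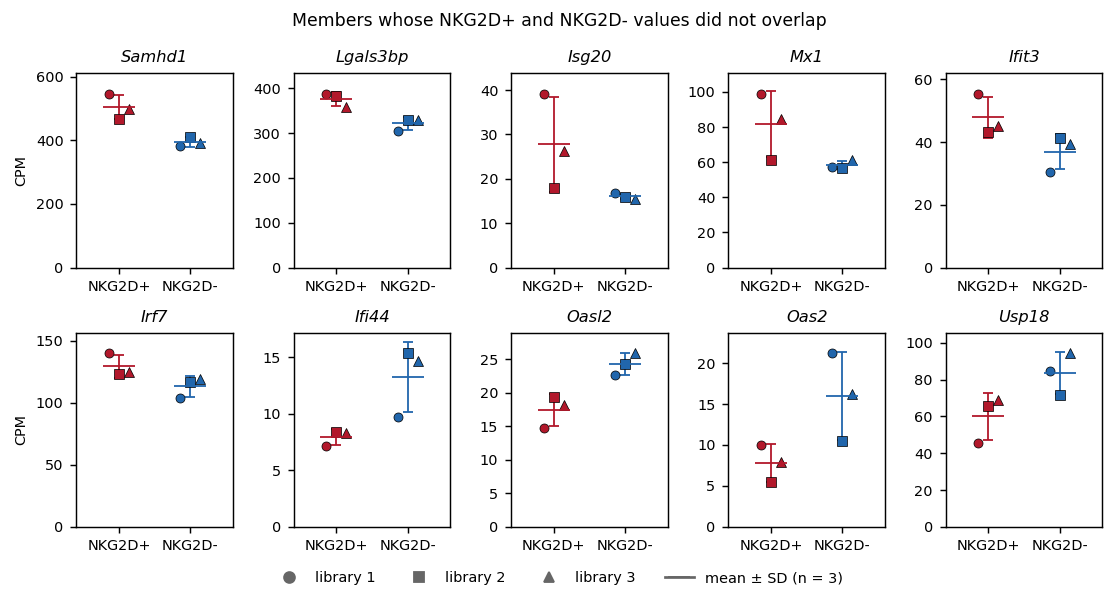
CPM in each library (circle, square and triangle for libraries 1, 2 and 3) of the 10 members whose NKG2D+ (red) and NKG2D- (blue) values did not overlap, with mean ± SD (n = 3) as a bar and whiskers. In Samhd1, Lgals3bp, Isg20, Mx1, Ifit3 and Irf7 the NKG2D+ values were the higher, and in Ifi44, Oasl2, Oas2 and Usp18 the lower.

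Among the signal and transcription factors, Irf7, the factor that amplifies interferon production, had 139.8, 124 and 125 CPM in NKG2D+ libraries 1, 2 and 3, against 104, 117 and 119.5 CPM in NKG2D- libraries 1, 2 and 3. The populations did not overlap but came close, with a log2 fold change of 0.19 (SE 0.08, adjusted p = 0.252). Irf9, the DNA-binding part of ISGF3, had 132, 115 and 133 CPM in NKG2D+ libraries, against 122, 119 and 133 CPM in NKG2D- libraries. These ranges overlapped almost entirely (log2 fold change 0.02, adjusted p = 0.902). For Stat2, its partner, the log2 fold change was 0.18 (adjusted p = 0.359). The NKG2D+ values of Irf7 and Stat2 were the higher in all 3 mice, and the upper end of both intervals lay under 1.5-fold.

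None of the 7 members grouped as RNA and DNA sensors and their regulators had an interval that reached 2-fold. Of these, 2 had a positive and 5 a negative log2 fold change, and with library sizes alone as the scaling Adar and Dhx58 turned to 0.03 and 0.07. Ifih1, which encodes the double-stranded RNA sensor MDA5, had the smallest p of the group. It had 25.1, 29.5 and 35.9 CPM in NKG2D+ libraries 1, 2 and 3, against 30.9, 37.0 and 41.3 CPM in NKG2D- libraries 1, 2 and 3. Within each mouse the NKG2D+ value was the lower, although the populations overlapped (log2 fold change -0.27, SE 0.16, adjusted p = 0.387). Adar, which encodes an enzyme that edits double-stranded RNA, was the most abundant by CPM, at 224, 233 and 251 CPM in NKG2D+ libraries, against 229, 244 and 262 CPM in NKG2D- libraries. Its interval ran from -0.24 to 0.13 around a log2 fold change of -0.06. Ddx58, which encodes the RNA sensor RIG-I, averaged 181 ± 10.2 CPM in NKG2D+ cells and 193 ± 14.9 CPM in NKG2D- cells (SD, n = 3 each). The others of the group ran from a log2 fold change of -0.20 for Ddx60 to 0.18 for Zbp1, a sensor of left-handed nucleic acid. Between them lay Dhx58, the LGP2 gene, at -0.01 and Eif2ak2, which encodes the RNA-activated kinase PKR, at 0.14.

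The oligoadenylate synthetase family makes a small messenger that activates the RNA-degrading enzyme RNase L. Of its 5 tested members, 4 had a negative log2 fold change and Oas1a a positive one, and Oas3 turned positive with library sizes alone. Oas2 had the lowest log2 fold change of all 39 members. It had 10.04, 5.43 and 7.89 CPM in NKG2D+ libraries 1, 2 and 3, against 21.2, 10.4 and 16.2 CPM in NKG2D- libraries 1, 2 and 3. The ranges did not overlap, since the highest NKG2D+ value lay just under the lowest NKG2D- value. The fitted NKG2D+ level was 0.489 times the NKG2D- level (log2 fold change -1.03, SE 0.31, adjusted p = 0.128). Within the 3 mice the log2 ratio was -1.08, -0.94 and -1.04, similar in all 3. Oasl2, an active family member in mice, had 14.7, 19.4 and 18.2 CPM in NKG2D+ libraries, against 22.6, 24.3 and 25.9 CPM in NKG2D- libraries. Again the populations did not overlap (log2 fold change -0.48, SE 0.12, adjusted p = 0.0944).

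Oas3 lies beside Oas2 in the genome. It had 114, 155 and 155 CPM in NKG2D+ libraries 1, 2 and 3, against 133, 138 and 157 CPM in NKG2D- libraries 1, 2 and 3. The log2 fold change was -0.01 with library 1 the lowest in both populations, and it turned to 0.07 with library sizes alone. The difference between Oas2 and its neighbour was not tested. For Oas1a the log2 fold change was 0.15 (adjusted p = 0.541), and for Oasl1, which in mice holds back the translation of Irf7, it was -0.28 (adjusted p = 0.51). Oas1a and Oas1g are near-identical copies, and reads that aligned to several places were set aside, so the counts of both are uncertain.

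IFIT proteins bind viral RNA and block its translation. Ifit3 had 55.3, 43.2 and 45.1 CPM in NKG2D+ libraries 1, 2 and 3, against 30.5, 41.2 and 39.2 CPM in NKG2D- libraries 1, 2 and 3. The populations were separated narrowly, and most of the difference lay in mouse 1 (log2 fold change 0.37, SE 0.14, adjusted p = 0.202). For Ifit1 the value of NKG2D+ library 1 stood out, with 59.0, 28.8 and 42.6 CPM in NKG2D+ libraries, against 32.5, 28.7 and 35.0 CPM in NKG2D- libraries (log2 fold change 0.44, SE 0.24, adjusted p = 0.364). This log2 fold change was 0.16 with NKG2D+ library 1 left out (adjusted p = 0.696) and 0.66 with NKG2D+ library 2 left out (adjusted p = 0.0423). Ifit2 had 49.0, 58.1 and 57.9 CPM in NKG2D+ libraries, against 47.3, 59.9 and 64.7 CPM in NKG2D- libraries, so the same mouse was lowest in both populations. Its log2 fold change was -0.06, and it turned to 0.02 with library sizes alone.

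ISG15 is a small protein that is attached to others like ubiquitin. The 4 members assigned to this group had a negative log2 fold change, although Herc6 turned to 0.07 with library sizes alone and Isg15 to 0.06 without NKG2D+ library 2. Of the system's other enzymes, which are no members, Uba7, which activates ISG15, was at 0.07 and Ube2l6, described further on, at 1.96. On all libraries edgeR called none of these genes, while DESeq2 called Ube2l6 higher. Usp18, which encodes the enzyme that removes ISG15 and also dampens signalling at the interferon receptor, had 45.5, 65.7 and 69.2 CPM in NKG2D+ libraries 1, 2 and 3. In NKG2D- libraries 1, 2 and 3 it stood at 84.8, 71.4 and 94.3 CPM. The ranges did not overlap, and the difference within a mouse was largest in mouse 1 and smallest in mouse 2 (log2 fold change -0.47, SE 0.18, adjusted p = 0.189). Isg15 itself overlapped in part, with 20.0, 11.9 and 16.6 CPM in NKG2D+ libraries, against 18.4, 13.2 and 20.9 CPM in NKG2D- libraries (log2 fold change -0.12, SE 0.23, adjusted p = 0.823). Trim25, a ubiquitin ligase that activates RIG-I, had 113, 109 and 122 CPM in NKG2D+ libraries, against 122, 123 and 133 CPM in NKG2D- libraries. Its NKG2D+ value was the lower in each mouse (log2 fold change -0.14, adjusted p = 0.347). Herc6, the main ligase for ISG15 in mice, was at a log2 fold change of -0.02 (adjusted p = 0.945).

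Mx1 encodes a GTPase that traps viral components in the nucleus, and many inbred strains carry a defective copy. Both Mx genes are listed as transcribed pseudogenes in the RefSeq annotation of C57BL/6J, and the allele of C3H/HeJ was not examined here. Mx1 had 98.8, 61.3 and 84.6 CPM in NKG2D+ libraries 1, 2 and 3, against 57.4, 56.8 and 61.0 CPM in NKG2D- libraries 1, 2 and 3. NKG2D+ library 2 lay just above the highest NKG2D- value, while libraries 1 and 3 were well above it (log2 fold change 0.48, SE 0.16, adjusted p = 0.16). Without NKG2D+ library 2 the adjusted p of Mx1 was 0.00978, without NKG2D+ library 1 it was 0.228, with the block 0.153 and by DESeq2 0.0568. For Mx2 the log2 fold change was 0.06 (SE 0.20, adjusted p = 0.901).

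Genes that restrict viruses through nucleotides or RNA had a median log2 fold change of 0.36, and all 4 values were positive. Without NKG2D+ library 1, that of Rsad2 turned to -0.10 and that of Cmpk2 was 0.11. Samhd1 had 546, 468 and 500.3 CPM in NKG2D+ libraries 1, 2 and 3, against 381, 411 and 393 CPM in NKG2D- libraries 1, 2 and 3. The populations were well apart, at 1.28-fold, with the smallest p among the members (log2 fold change 0.35, SE 0.08, adjusted p = 0.0768). Its adjusted p was 0.00302 by DESeq2, 0.027 by edgeR without NKG2D+ library 2, 0.0582 without NKG2D+ library 1 and 0.124 with the block. Isg20, which encodes an RNA-degrading exonuclease, had the highest log2 fold change of the members. Its NKG2D+ libraries spread widely, with 39.1, 17.9 and 26.2 CPM, against 16.7, 15.9 and 15.4 CPM in NKG2D- libraries. This gave 1.73-fold (log2 fold change 0.79, SE 0.26, adjusted p = 0.153). Without NKG2D+ library 2 its adjusted p was 0.0143. With NKG2D+ library 1 left out, its log2 fold change was 0.46 (adjusted p = 0.154). With the block the adjusted p was 0.152.

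Cmpk2, a mitochondrial nucleotide kinase, lies beside Rsad2, which encodes viperin, an enzyme that makes a chain-ending nucleotide. Cmpk2 averaged 32.5 ± 10.1 CPM in NKG2D+ cells and 25.2 ± 2.09 CPM in NKG2D- cells, and Rsad2 averaged 9.39 ± 3.01 CPM in NKG2D+ cells and 8.27 ± 0.731 CPM in NKG2D- cells (SD, n = 3 each). Both had their highest value in NKG2D+ library 1 and were spread more widely in NKG2D+ than in NKG2D- cells. The adjusted p was 0.378 for Cmpk2 and 0.7 for Rsad2.

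Of the membrane and secreted products, Lgals3bp had 387, 384 and 358 CPM in NKG2D+ libraries 1, 2 and 3, against 305, 329.5 and 329.8 CPM in NKG2D- libraries 1, 2 and 3. The difference was small and the libraries of each population lay close together (log2 fold change 0.23, SE 0.07, adjusted p = 0.132). Bst2 is also a surface antigen of plasmacytoid dendritic cells. It averaged 65.7 ± 7.16 CPM in NKG2D+ cells and 66.6 ± 3.91 CPM in NKG2D- cells (SD, n = 3 each). The log2 fold change was -0.02, and it turned to 0.06 with library sizes alone.

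PARP9 and DTX3L form a ubiquitin ligase, and PARP12 and PARP14 attach ADP-ribose to proteins. Parp14 had 263, 158 and 200.3 CPM in NKG2D+ libraries 1, 2 and 3, against 202, 166 and 191 CPM in NKG2D- libraries 1, 2 and 3. Its ranges overlapped, with library 1 the highest and library 2 the lowest in both populations (log2 fold change 0.15, SE 0.18, adjusted p = 0.687). Parp9, Parp12 and Dtx3l lay between -0.05 and -0.04 and turned to between 0.03 and 0.05 with library sizes alone. Parp9 and Dtx3l overlap in the RefSeq annotation, as do Stat2 and Apof, Adar and Chrnb2, Rtp4 and Masp1, and Ifit1 and Ifit1bl1. Reads assignable to several genes were set aside, so stretches shared by such partners may be missing from their counts.

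Among the other induced genes, Ifi44 stood apart. It had 7.12, 8.38 and 8.28 CPM in NKG2D+ libraries 1, 2 and 3, against 9.75, 15.3 and 14.7 CPM in NKG2D- libraries 1, 2 and 3. NKG2D+ values were close together and all under the NKG2D- values, which were lowest in mouse 1 (log2 fold change -0.74, SE 0.19, adjusted p = 0.0921). Trim30a, the most abundant of this group by CPM, had 174, 159.9 and 183 CPM in NKG2D+ libraries, against 168, 175 and 200.3 CPM in NKG2D- libraries. These overlapped, and the log2 fold change of -0.07 turned to 0.01 with library sizes alone. Xaf1, a gene linked to cell death, had a log2 fold change of 0.14, Rtp4 of 0.10 and Ifi35 of -0.04, and Ifi35 turned to 0.05 with library sizes alone.

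Within each population, the same libraries held the extreme values of most members. NKG2D+ library 1 held the highest NKG2D+ value of 24 members (61.5%), against 41.5% of all genes tested, and NKG2D+ library 2 held the lowest of 27 (69.2%), against 36.6% of all genes. Among NKG2D- libraries, library 3 held the highest value of 29 members (74.4%), against 28.1% of all genes. Within mouse 1 the NKG2D+ value was the higher for 27 of 39 members (69.2%, median log2 ratio 0.11), against 47.3% of all genes. Within mice 2 and 3 it was the higher for 11 and 15 members (28.2% and 38.5%, median -0.05 and -0.06), against 49.8% and 46.6% of all genes. Over all genes the medians in the 3 mice were -0.03, -0.001 and -0.02. The same NKG2D+ library 1 had the highest sum of B-cell markers and NKG2D- library 1 the lowest. NKG2D+ library 1 was also highest for the markers of CD8 T cells, CD4 T cells, plasma cells, plasmacytoid dendritic cells and myeloid cells. For NK-cell markers it was the lowest, but nearly all of that sum was Eomes, with 140.4, 346 and 272 CPM in NKG2D+ libraries 1, 2 and 3. NKG2D- library 3 had 120.4 CPM of B-cell markers, between the 51.8 and 166 CPM of NKG2D- libraries 1 and 2. The part of any of these cells in the members' values was not tested. The map of values by library shows that the high values of library 1 were not shared by all members, since 11 members, among them Usp18, Oas3, Oasl2, Ifih1 and Ddx60, had their lowest NKG2D+ value there.

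**Figure D4:**
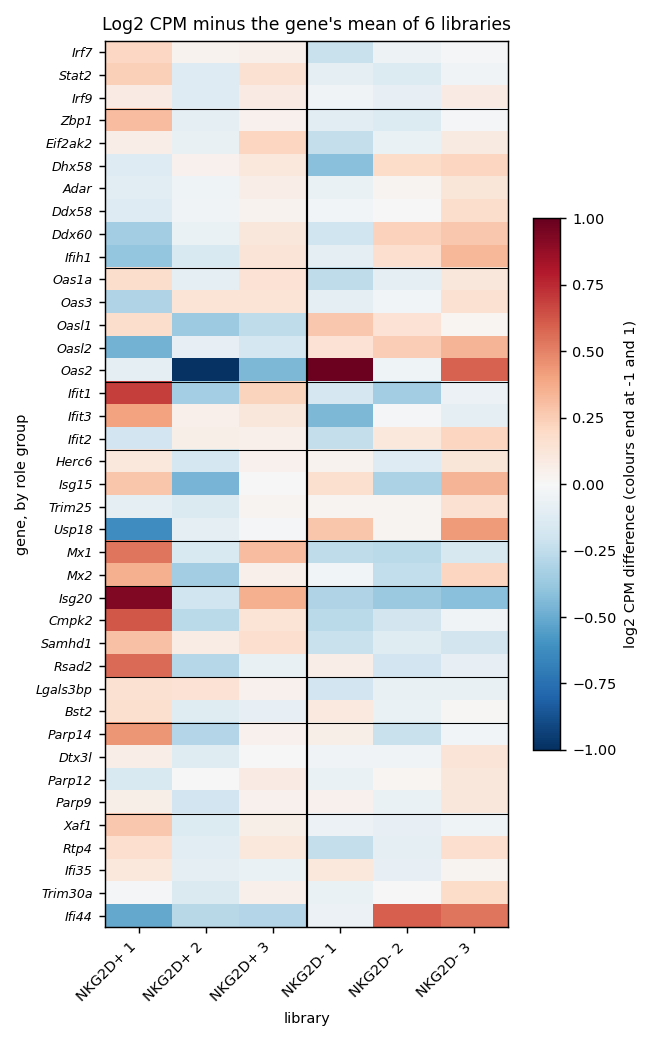
Log2 CPM of the 39 tested members (rows, by role group) in each library (columns, NKG2D+ left of NKG2D-), as the difference from the gene's mean over the 6 libraries, red for higher and blue for lower. NKG2D+ library 1 held the highest NKG2D+ value of 24 members and NKG2D- library 3 the highest NKG2D- value of 29.

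Genes on either side of these targets in the pathway were compared in the same way. Of 16 type I interferon genes in the files, 11 had 0 counts in every library and no library had more than 4 counts of any. A count of 0 allows up to 3 counts, or 0.0335 to 0.0456 CPM per NKG2D+ and 0.0468 to 0.0756 CPM per NKG2D- library (counting error only). This bound does not cover reads aligned to several places, which were set aside and lower the counts of genes with close copies. The cells that make these interferons need not be in the sort. Of 82 other pathway genes tested, edgeR called 0, with 13 (15.9%) at an unadjusted p under 0.05. DESeq2 called 7 higher (8.54%) and 3 lower (3.66%; Daxx, Ikbke and Socs3), against 7.73% and 3.41% of all genes, and limma-voom called 0. The 7 called higher by DESeq2 were Irf4, Irf5, Ly6a, Tap1, Tor3a, Ube2l6 and Unc93b1. Without NKG2D+ library 2, edgeR called 5 higher (6.1%; Irf4, Ly6a, Tap1, Tor3a and Ube2l6) and 1 lower (1.22%; Socs3), against 6.86% and 3.1% of all genes. Without both libraries numbered 2 it called 2 higher (2.44%; Irf4 and Ly6a) and 0 lower, against 2.45% and 0.252% of all genes. These shares were near or under those of all genes.

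The receptor and its kinases were all tested. Ifnar1, Ifnar2, Jak1 and Stat3 had log2 fold changes between -0.17 and 0.07, and Tyk2, the gene of this list with the smallest p, had 159, 179 and 189 CPM in NKG2D+ libraries 1, 2 and 3, against 151, 157 and 162 CPM in NKG2D- libraries 1, 2 and 3. Its populations overlapped, and the log2 fold change was 0.16 (SE 0.08, adjusted p = 0.303). Of 7 other interferon regulatory factors 0 were called by edgeR, with 3 at an unadjusted p under 0.05. Irf4, a factor induced by antigen receptor signals in lymphocytes, had 64.8, 17.6 and 38.1 CPM in NKG2D+ libraries 1, 2 and 3, against 16.97, 15.7 and 14.5 CPM in NKG2D- libraries 1, 2 and 3. All of its NKG2D+ values were the higher, with a wide spread (log2 fold change 1.35, SE 0.42, adjusted p = 0.142). Irf4 was also on the list of plasma cell markers, of which 5 were in the files. Apart from Irf4, nearly all of that list's level was Xbp1, with 77.1, 37.1 and 50.1 CPM in NKG2D+ libraries, against 37.4, 32.3 and 32.0 CPM in NKG2D- libraries. Sdc1, which defines plasma cells, was at 0.346 to 0.639 CPM in NKG2D+ and 0.234 to 0.355 CPM in NKG2D- libraries.

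Of 8 negative regulators of the signal, Socs3, an inhibitor of cytokine receptor signalling, had the smallest p. It had 44.7, 77.3 and 57.3 CPM in NKG2D+ libraries 1, 2 and 3, against 119.8, 105 and 90.6 CPM in NKG2D- libraries 1, 2 and 3. These values did not overlap (log2 fold change -0.82, SE 0.20, adjusted p = 0.0917). Among 11 adaptors and kinases of nucleic-acid sensing, Unc93b1, which carries Toll-like receptors to endosomes, had 50.2, 39.8 and 36.3 CPM in NKG2D+ libraries, against 16.4, 28.5 and 21.3 CPM in NKG2D- libraries. These values did not overlap either (log2 fold change 0.93, SE 0.21, adjusted p = 0.0815). B cells and dendritic cells express this gene too, and in mouse 1 both it and the B-cell markers differed most. The part of such cells in its values was not tested.

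Of 50 further interferon-induced genes, 29 had a positive log2 fold change (median of all 50, 0.02), and edgeR called 0, with 5 at an unadjusted p under 0.05. Daxx, a nuclear chaperone of histones, had the smallest p, with 86.1, 91.9 and 91.2 CPM in NKG2D+ libraries 1, 2 and 3, against 116, 105 and 111 CPM in NKG2D- libraries 1, 2 and 3. The populations did not overlap (log2 fold change -0.30, SE 0.07, adjusted p = 0.0756). Ube2l6, which encodes the enzyme that passes ISG15 on to its ligases, was picked after its values were seen because it had the highest log2 fold change of these genes. It had 16.6, 3.84 and 6.66 CPM in NKG2D+ libraries, against 1.96, 2.82 and 2.15 CPM in NKG2D- libraries (log2 fold change 1.96, SE 0.53, adjusted p = 0.11). DESeq2, and edgeR without NKG2D+ library 2, called it higher. Among members that were tested and had a promoter window, the 10 with a match to the response element had a median log2 fold change of 0.07 (range -0.20 to 0.44) and the 20 without a match one of -0.04 (range -0.74 to 0.79).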

How the data were processed

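The authors' deposited values are raw read counts of 23284 genes, by symbol, in 1 file for each library. Per the submitters' processing notes, CASAVA 1.8.2, TopHat2 2.0.4 and the genome build mm9 were used. The program and annotation used for counting were not given in the sources used here. The TruSeq RNA v2 kit named in the labels does not mark strand. Another 5 entries of each file name no gene and were left out: reads outside genes held 14.0% to 15.9%, reads of several genes 0.715% to 0.836% and reads aligned to several places 19.7% to 26.2% of all counts, which lowers counts of genes with close copies.

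Counts were tested in R 4.3.3 with edgeR 4.0.16 (TMM scaling, robust quasi-likelihood F-test, group as the only term) after filterByExpr (minimum count 10, minimum total 15), which kept 12951 genes. P-values were adjusted by Benjamini-Hochberg over all genes, with a threshold of 0.05, and are edgeR's unless another tool is named. CPM use TMM-scaled library sizes. SE is the log2 fold change divided by the square root of F, and intervals use it with the fit's degrees of freedom. The code was tested on simulated data. Exon lengths came from GENCODE M21 (GRCm38).

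DESeq2 1.42.0, limma-voom (limma 3.58.1), other scalings, no filter, a replicate block and fits without single libraries or mice were alternatives. The pairing rests on the series description, which names 3 mice, and on deviations from group means that correlated between same-numbered libraries (r = 0.21, 0.16 and 0.28 across genes). Same-numbered libraries also carried the same lane tag, so a shared mouse and a shared lane cannot be told apart in these correlations. Correlations between differently numbered libraries are not given, so the pairing by mouse remains an assumption. Within a population no library was a copy of another, with a chi-square of 42.0 to 256 for each degree of freedom. P-values set a difference between populations against the spread between these libraries. The main fit has no term for the mouse, so that spread includes any difference between mice.

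The members and lists were chosen with earlier results of these data known. Values per library are given for members whose populations did not overlap and, in each role group, for the member with the smallest p and the one with the highest CPM, and Isg15 and Ifit1 were added after their values were seen. From each pathway list the gene with the smallest p is given. The values of 1 pathway gene are not reported here.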

Additional observations from a re-analysis of the deposited data

How the results depend on the processing

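Of all genes, edgeR called 214 higher and 47 lower on all libraries. The block left 57 and 11, limma-voom 60 and 23, and DESeq2 1001 and 441. Leaving out a library or a mouse gave 0 to 904 higher and 0 to 408 lower, the highest without NKG2D+ library 2, 424 and 119 without NKG2D+ library 1, 4 to 15 higher and 4 to 6 lower without NKG2D+ library 3 or any 1 NKG2D- library, and 0 without both libraries numbered 3, where 971 genes had an unadjusted p under 0.05. Of the members, edgeR called 0 on all libraries, DESeq2 3 higher and 3 lower and the block 0 higher and 1 lower, while leaving out a library or a mouse gave 0 to 4 higher and 0 to 1 lower. For the other pathway genes DESeq2 called 7 higher and 3 lower, and leaving out a library or a mouse gave 0 to 5 higher and 0 to 1 lower. RLE or upper-quartile scaling, library sizes alone and no filter called 0 members and 0 other pathway genes. The median log2 fold change of the members stayed between -0.06 and 0.06 without single libraries or mice, and was 0.07 with library sizes alone, where that of all genes was 0.07 too. With library sizes alone the sign turned for Ifit2 to 0.0214, Oas3 to 0.0706, Bst2 to 0.0637, Dhx58 to 0.0667, Trim30a to 0.0111, Ifi35 to 0.0481, Parp9 to 0.0308, Parp12 to 0.035, Dtx3l to 0.0459, Herc6 to 0.0694 and Adar to 0.0264, and with the block Dhx58 turned to 0.00943. Signs also turned when libraries or mice were left out, over these ranges of the log2 fold change: Isg15 from -0.296 to 0.0643, Ifit2 from -0.183 to 0.0329, Mx2 from -0.137 to 0.223, Oas3 from -0.0939 to 0.121, Rsad2 from -0.104 to 0.349, Irf9 from -0.0235 to 0.0897, Bst2 from -0.112 to 0.0341, Rtp4 from -0.0488 to 0.215, Dhx58 from -0.194 to 0.0911, Trim30a from -0.135 to 0.00108, Ifi35 from -0.101 to 0.00391, Parp9 from -0.105 to 0.0214, Parp12 from -0.101 to 0.0156, Parp14 from -0.0553 to 0.313, Dtx3l from -0.11 to 0.0139 and Herc6 from -0.0848 to 0.0638. The causes were not tested. The block changed no other call among the members, and without both libraries numbered 3 even Klrk1 missed the threshold. With 3 libraries per population, differences under about 1.5-fold were often within the intervals.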
